A study of Mus musculus with 19 samples.

Results

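Upstream open reading frames (ORFs) that overlap the coding sequence were described in cultured B16-F10 cells, a melanoma line of C57BL/6 mice. Such an ORF starts in the 5′ untranslated region and stops inside the coding sequence of the same transcript, in another reading frame. Its members were all entries that the authors classed as overlapping upstream ORFs in a pair of deposited lists of translated unannotated ORFs, of which one is named for KO cells and the other for SCR cells. There were 387 of 2997 listed ORFs (12.9%), of which 120 of 1383 were in the KO list (8.68%) and 267 of 1614 in the SCR list (16.5%). KO cells carried a Mettl5 knockout and SCR cells a scrambled control. The labels do not say how Mettl5 was edited or whether the KO line is a single clone. METTL5 methylates an adenosine of the ribosomal RNA in the small subunit. Each genotype had 2 libraries of ribosome footprints, the RNA pieces that ribosomes protect from nuclease, and 2 of input RNA. Per the labels, cells of both genotypes were given cycloheximide, which stalls elongating ribosomes, before footprints were made.

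In eukaryotes the small ribosomal subunit scans from the 5′ end of an mRNA and usually starts at the first well-placed start codon. A ribosome that has translated an upstream ORF can translate the coding sequence only if it starts again after the stop codon. An overlapping ORF ends past the main start codon, so a ribosome that translated it would have to move backwards to restart there. A purine 3 bases before the start codon and a G just after it are known to favour starting, and CTG, GTG and ACG are weaker start codons than ATG.

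Start contexts are the bases around the start codons that the authors' lists assign, and do not by themselves show that ribosomes started there. A sequence was found for 52 of the 387 members, by matching the deposited peptide to RefSeq promoter sequence of GRCm38.p6 over at least 8 codons. Those below are examples from both lists and all 4 start codons, with 9 bases before the start codon, on the transcript strand, 5′ to 3′, and the start codon in capitals. The first 5 are from the KO list and the others from the SCR list.
Prkag1: cggcaccggATGtggggcggggtctggcgc
Acin1: agtggcaagATGgctcccctgcatgtctcc
C1s1: cttaactgcATGaccagaggcaggagagga
C1rb: ctcccctgtATGcctactccctccttcagc
Utp25: aacttgccaCTGggaaccttgtgttttgtt
Ywhaq: cagatcaaaGTGgtgggactcgcgtcgcgg
Ctsd: gcgggtcagCTGactccgcgggactgcggc
Otud5: accggtgtcCTGatctctttatccaggcct
Washc4: ccggaagtcACGtgccgtgacagcggctgg
Fbxo30: aggattgggACGggacgggccccgtgcgtg

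Prkag1 encodes a regulatory subunit of the energy sensor AMPK, and its overlapping ORF had neither a purine at position -3 nor a G at position 4, counted with the first base of the start codon as 1. Acin1 had both, and so did Ywhaq, which encodes a 14-3-3 protein. C1s1 and C1rb, both complement proteases, had neither. Among matched members with an ATG start, 9 of 23 had a purine at -3 (39.1%), beside 47 of 81 matched upstream ORFs that do not reach the coding sequence (58.0%). Of the same ATG members 11 of 23 had neither favoured base (47.8%), beside 18 of 81 (22.2%). With CTG, GTG or ACG starts the purine stood in 21 of 29 members (72.4%) and in 60 of 80 of those other upstream ORFs (75.0%). These shares describe the few ORFs whose start lies near a RefSeq transcript start, and ORFs are not replicates, so they were not tested.

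The members used start codons other than ATG more often than not. In the KO list 52 of 120 started with ATG (43.3%), 45 with CTG, 16 with GTG and 7 with ACG. In the SCR list 92 of 267 started with ATG (34.5%), 106 with CTG, 40 with GTG and 29 with ACG. CTG was thus the most frequent start of the SCR list and ATG that of the KO list. Upstream ORFs that end before the coding sequence started with ATG in 55.9% of the KO list and 45.3% of the SCR list. Only 18 KO-list and 59 SCR-list members had an adjusted p of translation below 0.001. Among these the ATG share was 55.6% in the KO list and 42.4% in the SCR list, so ATG was the majority in that small part of the KO list.

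The overlapping ORFs were short. Their median length, without the stop codon, was 120 nt in the KO list and 138 nt in the SCR list, against 69 and 84 nt for the other upstream ORFs. The longest was 585 nt in the KO list (Plekha7, a protein of the adherens junction) and 699 nt in the SCR list (Cemip2, a transmembrane protein of hyaluronan turnover). The shortest measured 24 nt, and these were Acin1 in the KO list and Prc1, Zfp770 and Hgh1 in the SCR list. A median of 61 bases lay before the main start codon in the KO list and 82 in the SCR list. The overlap with the coding sequence had a median of 41 bases (4 to 233) in the KO list and 37 (4 to 332) in the SCR list.

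The commonest geometry was an overlap of 4 bases, the shortest found, in which the stop codon of the upstream ORF begins at the second base of the main start codon. It held for 17 KO-list ORFs (14.2%) and 43 SCR-list ORFs (16.1%), and the next most common length was shared by 9 ORFs in each list. Its members included the upstream ORFs of Hsp90b1, the chaperone of the endoplasmic reticulum, Ccn1, a secreted matrix protein, and Ctsd, a lysosomal protease. By residue, alanine, arginine, glycine and proline made up 42.4% of the peptides of overlapping ORFs over both lists. In the same lists they made up 43.1% of the peptides of other upstream ORFs and 25.5% of those of ORFs downstream of the coding sequence.

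**Figure D1:**
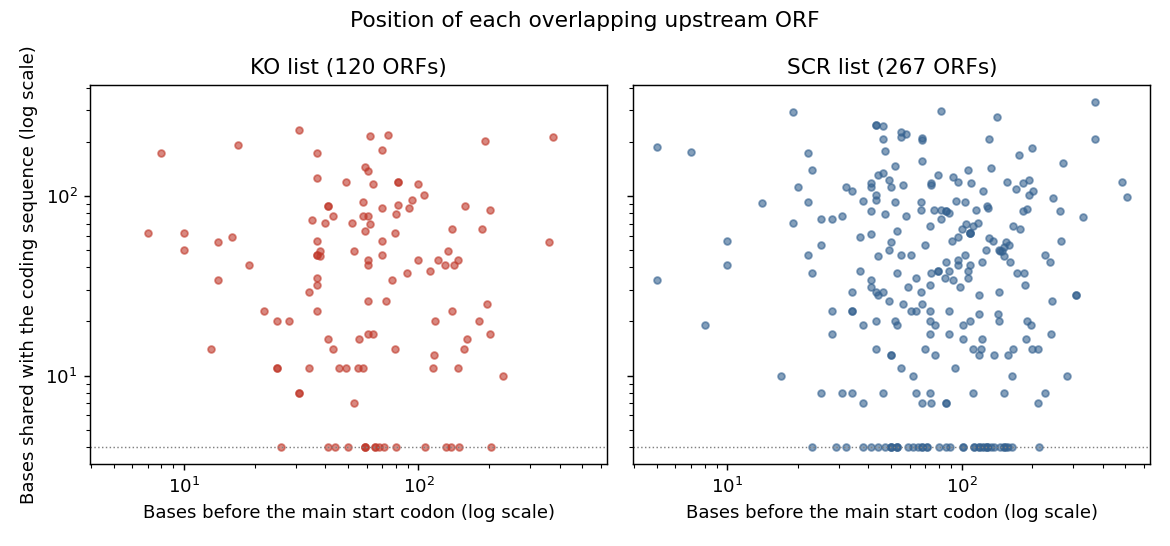
Bases before the main start codon (x, log scale) against bases shared with the coding sequence (y, log scale) for each overlapping upstream ORF, KO list left and SCR list right. The row of points on the dotted line holds the 17 KO-list and 43 SCR-list ORFs that share 4 bases.

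Each ORF came with counts of P-sites, the positions of the ribosome's peptidyl site, in its own frame and the other frames. These counts cover all footprint libraries together, so an ORF has no value per genotype, and the list it stands in is its only link to KO or SCR. Per the names of the deposited lists, an ORF stands in the list of the genotype in which its TPM was larger, without saying from which reads. The authors' caller chose ORFs by frame, so frame shares are descriptions. A median of 58.8% of P-sites fell in the ORF's own frame in the KO list and 61.0% in the SCR list. In upstream ORFs that end before the coding sequence the medians were 74.4% in the KO list and 72.1% in the SCR list.

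The remaining P-sites lay more often in the frame of the main coding sequence than in the third frame. The coding frame held a median of 23.4% in the KO list and 24.8% in the SCR list, and the third frame 12.0% in the KO list and 10.7% in the SCR list. It exceeded the third frame in 80 of 120 KO-list ORFs and in 188 of 267 SCR-list ORFs. In 18 KO-list and 50 SCR-list ORFs it also exceeded the ORF's own frame. At overlaps of 4 to 10 bases the median coding-frame share was 18.9% in the KO list and 15.2% in the SCR list. The third frame held 15.5% and 10.6% there. At these overlaps the coding frame was above the third in 8 KO-list ORFs and below it in 12, and above in 32 SCR-list ORFs and below in 25. At overlaps of over 120 bases the median coding-frame share was 27.0% in the KO list and 34.7% in the SCR list.

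**Figure D2:**
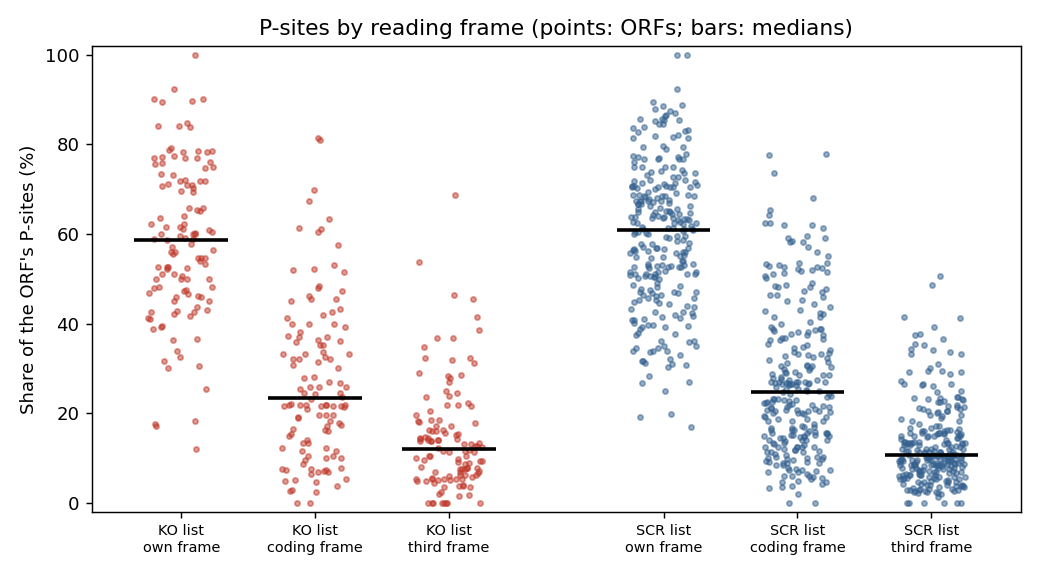
Share of each ORF's P-sites (y, percent) in its own frame, the frame of the coding sequence and the third frame, KO list left and SCR list right. Points are ORFs and bars medians, which were 58.8, 23.4 and 12.0% in the KO list and 61.0, 24.8 and 10.7% in the SCR list.

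**Figure D3:**
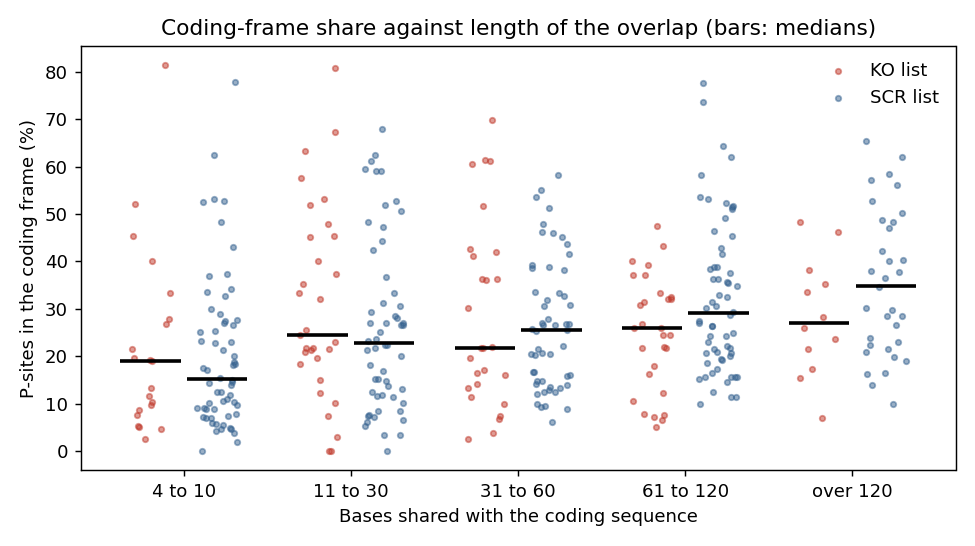
Share of P-sites in the coding frame (y, percent) by length of the overlap in bases (x), with the KO list left of the SCR list in each bin. Bars are medians. In the SCR list they lay between 15.2% at the shortest and 34.7% at the longest overlaps.

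A few members had most of their P-sites in the coding frame. Fkbp5, which encodes a co-chaperone of steroid receptors, had 11.94% of 913 P-sites in the own frame of its KO-list ORF (exact Clopper-Pearson 95% interval 9.906 to 14.22%) and 81.4% in the coding frame, although the overlap was 4 bases. The SCR-list ORF of Pfn1, which encodes an actin-binding protein, had 17.0% of 8239 P-sites in its own frame (16.2 to 17.9%) and 77.7% in the coding frame. Lamc1, a laminin chain, had 19.1% of 262 P-sites in its own frame (14.5 to 24.4%) with an overlap of 4 bases in the SCR list. At the other end Acin1 in the KO list and Hgh1 and Gxylt2 in the SCR list had every P-site in their own frame, over 22, 12 and 10 P-sites. These intervals cover counting error only.

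In the KO list the ORFs of highest level belonged to Ufsp2, a protease of the UFM1 modifier, with 64.48 RPKM, Nap1l1, a histone chaperone, with 41.32 RPKM and Cggbp1, a protein that binds CGG repeats, with 38.14 RPKM. RPKM is the authors' own-frame level per length and is used here only to rank ORFs. The Ufsp2 ORF lay on chr8:46432262-46432330 of GRCm39, plus strand, and had 48.0% of 761 P-sites in its own frame (44.4 to 51.6%). Nap1l1 had 31.77% of 1004 P-sites in its own frame (28.9 to 34.75%) and 57.67% in the coding frame. Cggbp1 had 45.85% of 578 in its own frame (41.73 to 50.01%) and 42.56% in the coding frame. Fam126a (27.2 RPKM) and Wdr83 (25.79 RPKM) came next. They were the clearest in frame of these 5, with 84.7% (78.1 to 90.0%) and 90.1% (84.5 to 94.3%) in their own frame.

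In the SCR list the ORF of Gpnmb, which encodes a melanosome glycoprotein, stood first with 1228 RPKM. It ran from an ATG over 168 nt, 115 bases into the coding sequence, within chr6:49013601-49019745, plus strand, and had 40525 P-sites, of which 43.7% were in its own frame (43.2 to 44.1%) and 49.2% in the coding frame. Next came Cycs (cytochrome c, 278.5 RPKM), Hsp90b1 (276.6), Ccn1 (193.8) and Ccnd2 (cyclin D2, 153.5), of which Ccn1 started with CTG and the others with GTG. Their own-frame shares were 68.5% (65.9 to 71.1%) in Cycs, 76.8% (74.7 to 78.9%) in Hsp90b1, 74.0% (71.6 to 76.3%) in Ccn1 and 69.4% (67.3 to 71.4%) in Ccnd2. All 4 thus had a majority in frame, while Gpnmb did not. Cycs has many near-identical pseudogene copies, so its reads may be split and its values are uncertain. In the KO list Nutf2 and Nutf2-ps1 each had 135 P-sites and 6.57 RPKM and were counted as separate members and hosts. Whether these are the same reads was not tested.

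Own-frame P-sites were usually a small part of the host gene's footprints. They came to a median of 3.03% of the gene's footprint count in the KO list and 2.13% in the SCR list, and to over 10% in 18 KO-list and 31 SCR-list ORFs. P-sites and gene counts are separately deposited values, and the sources do not say that they count the same reads. These shares are therefore approximate. The largest shares were 42.4% in the KO list (Zfp993) and 47.0% in the SCR list (Morn2). In 3 ORFs, of Derpc, Gm27021 and Gm44973, the gene had fewer footprints than the ORF had P-sites, and no share was formed.

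No ORF was in both lists, as a split by the larger TPM leaves none to share, and 2 host genes were. Ikbkg, the regulatory subunit of the IκB kinase, had a CTG ORF of 51 nt in the KO list and an ATG ORF of 96 nt in the SCR list. Zfp770, a zinc finger gene, had an ATG ORF of 96 nt in the KO list and an ATG ORF of 24 nt in the SCR list. Both pairs therefore differ in their start sites. A630089N07Rik, Bag6, Lsm10, Mgat4b, Naa50 and Rtn3 each hosted 2 members of the SCR list. The deposited set of unannotated ORFs held 333 of the 387 members among its 1244 overlapping ORFs, and all 36 members with an ACG start were among the 54 outside it. Overlapping ORFs of Atf4 and Atf5, stress-response transcription factors whose best-known upstream ORFs overlap the coding sequence, stood in that set with 59 and 58 codons but in neither list. The same held for most of the set, as 911 of its 1244 overlapping ORFs were in neither list.

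The genotypes were then compared in the 379 host genes with the deposited gene counts. The checks came first. Mettl5 had 6.22 and 6.15 CPM (counts scaled to a common library total) of input RNA in KO cells, against 9.47 and 9.61 CPM in SCR cells (log2 fold change -0.56, SE 0.13, adjusted p = 0.0284, edgeR quasi-likelihood test). Its footprints were 11.5 and 12.0 CPM in KO cells, against 14.6 and 13.2 CPM in SCR cells, so reads of the gene remained in both assays of the cells labelled KO. Gene counts per library totalled 43601773 and 48692578 in KO and 38968000 and 43083013 in SCR input RNA, and 14555963 and 21366608 in KO and 28059683 and 31301806 in SCR footprints. The sum of 10 melanocyte markers was 14100 to 14200 CPM in KO and 13600 to 13800 CPM in SCR input RNA. The sum of 6 blood-cell markers was 1.33 to 2.23 CPM in KO and 2.33 to 3.18 CPM in SCR cells, with 4 of the 6 at 0 in every input RNA library. The 7 markers of fibroblasts and endothelium summed to 8.07 to 8.62 CPM in KO and 9.98 to 12.4 CPM in SCR cells, with 2 of the 7 at 0 throughout. Their part in the results was not tested.

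All CPM below are per library total, and all fold changes are log2, KO minus SCR, after TMM scaling, with adjusted p over all genes tested. Log2 ratios of the plain CPM of the hosts lay a median of 0.11 above these fold changes in footprints and differed from them by -0.07 in input RNA, so changes are relative to that scaling. The labels do not say that replicates came from separate cultures, so p-values measure only the spread between these libraries. In these bulk samples fewer cells with an RNA and less of it per cell cannot be told apart. A gene's footprint count includes footprints on its upstream ORF. Since footprints may also have made the lists, host counts in footprints and translational efficiency are set beside the background and not tested between lists.

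In input RNA the hosts changed in both directions. Of 119 KO-list hosts tested, 19 rose and 10 fell, and of 259 SCR-list hosts 28 rose and 31 fell, against a background of 9.56% risen and 7.21% fallen among 20025 genes. The median change was 0.02 in KO-list and -0.01 in SCR-list hosts, beside -0.0061 over all genes. Over both lists 47 hosts rose and 41 fell, and without 1 library the rises numbered 9 to 67 and the falls 15 to 52.

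Hsph1, a chaperone of the HSP110 family, had 194.6 and 187.2 CPM in KO input RNA, against 132.4 and 135.3 CPM in SCR input RNA (0.58, SE 0.05, adjusted p = 0.00215). Phf19, a partner of Polycomb complex PRC2, had 19.6 and 18.5 CPM in KO, against 11.7 and 12.0 CPM in SCR cells (0.76, adjusted p = 0.00627). Thbs1, the matrix protein thrombospondin-1, had 26.4 and 28.7 CPM in KO, against 17.8 and 19.9 CPM in SCR cells (0.61, adjusted p = 0.0082). KO libraries lay above SCR libraries in all 3, which adds no support, as they were named by small p in these same libraries. Mpp6, Ptpn11, Emc8, Cdyl, Hgh1, Fkbp4 and Snx15 also rose, by 0.36 to 0.81.

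Epha7, an ephrin receptor, had 7.89 and 8.90 CPM in KO input RNA, against 21.6 and 24.1 CPM in SCR input RNA (-1.38, SE 0.11, adjusted p = 0.00141). Anxa11, a calcium-dependent membrane-binding protein, had 57.0 and 58.9 CPM in KO, against 95.5 and 93.3 CPM in SCR cells (-0.64, adjusted p = 0.00141). Hif1a, the oxygen-regulated transcription factor, had 164.8 and 173.8 CPM in KO, against 238 and 243.2 CPM in SCR cells (-0.44, adjusted p = 0.00344). The KO libraries lay below the SCR libraries in each, which follows from the same choice by small p. Vgll3, Sulf2, Aplp2, Tmem106b, Zyx, Cttnbp2nl and Plekhh2 fell as well. C1s1 fell the most among the KO-list hosts, with 0.513 and 0.711 CPM in KO, against 2.16 and 2.23 CPM in SCR cells (-1.78, adjusted p = 0.00788).

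In footprints few hosts passed the test. In the KO list 1 host rose and 2 fell of 119, and in the SCR list 0 rose and 13 fell of 259, beside 0.51% risen and 1.78% fallen of 16878 genes. At an unadjusted p below 0.05 edgeR gave 24 rises and 12 falls in KO-list hosts, and 17 and 71 in SCR-list hosts. DESeq2 at its adjusted threshold gave 6 rises and 3 falls in KO-list hosts, and 2 and 47 in SCR-list hosts. The direction thus went with the list, which footprints may have made. Shares of all genes by these 2 criteria were not computed. The median change was 0.06 in KO-list and -0.07 in SCR-list hosts, beside 0.00657 over all genes. Leaving out 1 footprint library leaves 1 library in its group. Whichever library it was, almost no host of either list was then called as a fall. Such a fit cannot tell a smaller change from a weaker test. In these fits Ccn1 changed by -0.97 to -0.859, Atp13a2 by -0.823 to -0.764 and Tmem94 by -0.713 to -0.64. With all libraries they changed by -0.902, -0.781 and -0.671.

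Ccn1 had 329.4 and 314.8 CPM of footprints in KO cells, against 543.7 and 572.2 CPM in SCR cells (-0.90, SE 0.07, adjusted p = 0.0195), while its input RNA was 17.0 and 20.9 CPM in KO and 23.2 and 21.4 CPM in SCR cells. Atp13a2, a lysosomal polyamine transporter, had 167.1 and 161.6 CPM of footprints in KO, against 270.5 and 253.1 CPM in SCR cells (-0.78, SE 0.06, adjusted p = 0.0196). Tmem94, a membrane protein whose member stands in the KO list, had 47.3 and 48.9 CPM in KO, against 72.1 and 69.9 CPM in SCR cells (-0.67, adjusted p = 0.0276). KO and SCR libraries did not overlap in these 3 genes. As they were named by small p in these same libraries, that adds no support. Without SCR footprint replicate 1, Ccn1 still passed, and its adjusted p was 0.0832 to 0.108 without any other footprint library. Tmc8, Cldnd1, Anxa11, Epha7, Sulf2, Gxylt2 and Tpra1 fell by 0.51 to 0.88. Xrcc5, the Ku80 subunit of DNA end joining, rose, with 114.9 and 111.9 CPM in KO and 73.9 and 75.4 CPM in SCR cells (0.49, SE 0.05, adjusted p = 0.035), and its adjusted p was 0.122 to 0.161 without any one footprint library.

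Translational efficiency, footprints relative to input RNA, was tested as the interaction of genotype and assay. In KO-list hosts 3 rose and 7 fell of 119, and in SCR-list hosts 3 rose and 21 fell of 259, beside 0.788% risen and 3.4% fallen of 23211 genes. Falls made up more of the hosts than of the background in both lists, where hosts were not matched to the background on level. Hosts of the other upstream ORFs had 12 falls of 366 in the KO list and 75 of 760 in the SCR list (9.87%). Medians were 0.01 in KO-list and -0.10 in SCR-list hosts, beside -0.0547 over all genes. Without KO input RNA replicate 1, or without either SCR input RNA library, 0 of the 28 falls over both lists passed, with 74 to 78 at an unadjusted p below 0.05. Fewer hosts were called as falls without KO input RNA replicate 2 as well. Without a footprint library the number called stayed near that of the full fit, but the hosts called need not be the same.

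Among the falls in efficiency, Atp13a2 changed by -0.91 (SE 0.10, adjusted p = 0.0205), with input RNA of 510.2 and 468.7 CPM in KO and 499.5 and 464.4 CPM in SCR cells. Its ORF starts with an ATG 19 bases before the main start codon, runs 293 bases into the coding sequence and had 50.4% of 1149 P-sites in its own frame. Tmem94 changed by -0.67, Tmc8, of the transmembrane channel-like family, by -0.75 and Ccn1 by -0.77. Entpd6 and Mgat4b, enzymes of the secretory pathway, Igsf8, Cldnd1, Ccdc47 and Fbxw4 also fell. In Entpd6, Mgat4b and Fbxw4 input RNA rose by 0.27 to 0.40 beside it.

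The rises in efficiency were 6 in all. They did not pass without KO input RNA replicate 1 or without either SCR input RNA library. Only some of them passed without any other single library. C1s1 rose by 1.63 (SE 0.23, adjusted p = 0.0208; 0.0908 to 0.108 without one of those 3 libraries), with footprints of 28.9 and 26.4 CPM in KO and 25.1 and 29.9 CPM in SCR cells beside the lower input RNA above. Zyx, a focal adhesion protein, rose by 0.68 (adjusted p = 0.0333) with input RNA of 75.6 and 78.7 CPM in KO, against 110.4 and 120.9 CPM in SCR cells. In C1s1, Itsn2, Zyx, Sgip1 and Plekhh2 input RNA fell and footprints did not pass the test, and Xrcc5 was the exception, with input RNA that did not pass (0.10, adjusted p = 0.235). The authors' deposited table of translational efficiency called 4 rises and 11 falls in KO-list hosts and 3 rises and 42 falls in SCR-list hosts, beside 2.17% and 8.69% of its 16872 genes.

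**Figure D4:**
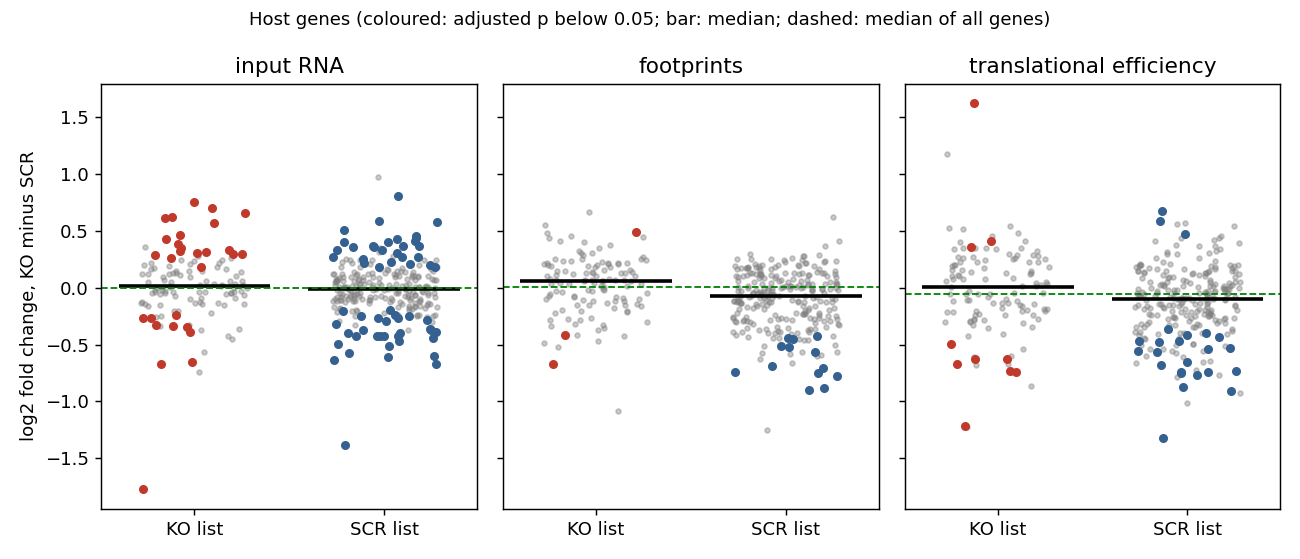
Log2 fold change, KO minus SCR (y), of host genes in input RNA, footprints and translational efficiency, KO-list hosts left of SCR-list hosts. Coloured points passed an adjusted p below 0.05, black bars are medians and the dashed line is the median of all genes. Falls outnumber rises among coloured points in the footprint and efficiency panels.

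**Figure D5:**
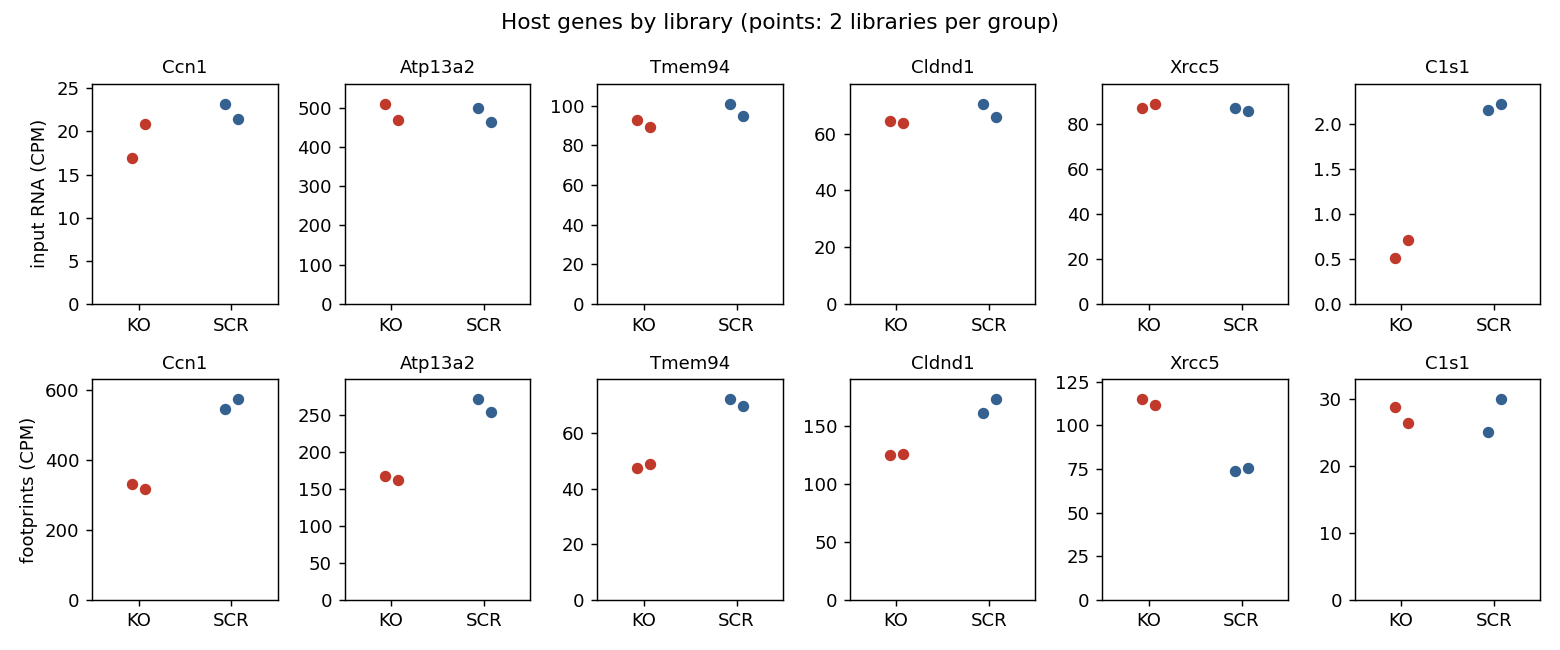
CPM of 6 host genes (y) in input RNA (top) and footprints (bottom), KO left and SCR right, each point 1 library. KO footprints lie below SCR footprints in Ccn1, Atp13a2, Tmem94 and Cldnd1 and above them in Xrcc5, and C1s1 differs in input RNA. The genes were named by tests on these same libraries.

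Genes known from the literature to be controlled through upstream ORFs hosted no member. Of 25 tested, 0 rose and 6 fell in translational efficiency by edgeR, beside 0.788% risen and 3.4% fallen over all genes, with 1 rise and 11 falls at an unadjusted p below 0.05 and 0 rises and 7 falls by DESeq2. These were Atf4 (-0.63), Ifrd1 (-0.67), Mdm2 (-0.54), Odc1 (-0.53), Ppp1r15b (-0.81) and Slc7a1 (-0.83), and input RNA rose in each. Atf4 had 270 and 261.7 CPM of input RNA in KO, against 202 and 186.8 CPM in SCR cells, and 136.9 and 143.2 CPM of footprints in KO, against 132.3 and 139.6 CPM in SCR cells. The 6 falls in efficiency did not pass without KO input RNA replicate 1 or without either SCR input RNA library. Without another library the number of falls called stayed near that of the full fit, but the genes called need not be the same. In footprints 0 of the 25 passed in either direction, beside 0.51% risen and 1.78% fallen over all genes, with 4 rises and 4 falls at an unadjusted p below 0.05 and 1 rise and 3 falls by DESeq2.

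Among 35 factors of start site choice, scanning and reinitiation tested, 0 rose and 1 fell in efficiency by edgeR, beside 0.788% and 3.4% over all genes, with 3 rises and 4 falls at an unadjusted p below 0.05 and 1 rise and 2 falls by DESeq2. The fall was Eif2b4 (-0.57, adjusted p = 0.0361), a subunit of the exchange factor of eIF2. Input RNA rose in 9 of 34 and fell in 1, Eif2ak2, an eIF2 kinase, beside 9.56% and 7.21% over all genes, and 1 rise passed when either SCR input RNA library was left out. Abce1, which splits ribosomes after termination, was the only factor of this list to host a member, a KO-list ORF of 90 nt with a CTG start and 59 own-frame P-sites. Its own values did not pass in input RNA (0.02), footprints (0.35, adjusted p = 0.069) or efficiency (0.29, adjusted p = 0.208).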

How the data were processed

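Ribosome footprints and input RNA of cultured cells were grouped by genotype and assay from the labels (2 libraries each). The KO counts are those in columns headed POOL, a reading made by elimination because the remaining columns carry the name SCR. The authors deposited estimated counts per gene, as whole numbers and not normalized. Per the submitters' processing notes, STAR 2.7.10a, StringTie 2.1.7 and GRCm39 were used, with no role stated. The authors' deposited table of translational efficiency holds for each gene a ratio in KO and in SCR cells, the log2 of their quotient and a p-value, and for each listed ORF the authors deposited P-sites per frame, an RPKM and an adjusted p-value. The ORF caller, the efficiency tool and the handling of strand and of reads with several matches are not given in the sources used here.

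Members were the ORFs classed Overlap_uORF. Members, gene lists and the rule for naming genes (the 5 ORFs of highest RPKM per list, up to 10 hosts per direction and comparison by smallest p, extremes of length and P-sites, hosts in both lists or in a gene list) were chosen with earlier results of these data known. A listed symbol with several gene IDs (Ddit3) was counted by the ID with most reads. TPM in the naming rule was replaced by RPKM. Fkbp5, Lamc1, the ORFs wholly in frame, Zfp993, Morn2 and the printed sequences were chosen after their values were seen. Counts were tested in R 4.3.3 with edgeR 4.0.16 (TMM, filterByExpr, quasi-likelihood F test, Benjamini-Hochberg over all genes, adjusted p below 0.05), checked on simulated data. Alternatives were DESeq2 1.42.0, its size factors, no filter, a replicate block and leaving out each library. Other values came from Python 3.11.15. Deviations of same-numbered KO and SCR libraries had a correlation over 12539 genes of 0.0128 (input RNA) and -0.0128 (footprints), so libraries were treated as unpaired.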

Additional observations from a re-analysis of the deposited data

How the results depend on the processing

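Host counts over both lists were 47 rises and 41 falls in input RNA, 1 rise and 15 falls in footprints and 6 rises and 28 falls in translational efficiency. With no filter on low counts they were 15 and 22 in input RNA, 31 falls in footprints and 1 rise in efficiency. With DESeq2 they were 8 and 50 in footprints and 14 and 48 in efficiency. With the replicate block, 0 passed in either direction in footprints or efficiency, with 33 rises and 71 falls in footprints and 39 rises and 89 falls in efficiency at an unadjusted p below 0.05. Leaving out 1 library gave 9 to 67 rises and 15 to 52 falls in input RNA, 0 to 0 rises and 0 to 1 falls in footprints and 0 to 4 rises and 0 to 31 falls in efficiency, with 10 to 36 rises in footprints at an unadjusted p below 0.05. The ATG share at an adjusted p of translation below 0.001 was 55.6% (18 ORFs of the KO list) and 42.4% (59 ORFs of the SCR list). Counted by host gene instead of by ORF, 2 were shared by both lists. Of the 47 values of named hosts, 27 no longer passed under the replicate block and 5 with no filter, 118 of 252 values with 1 library left out did not pass, and none reversed. Footprint libraries held 14555963 and 21366608 counts in KO and 28059683 and 31301806 in SCR cells, and the effect of depth on the calls was not tested.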
